A study of Arabidopsis thaliana with 12 samples.

Results

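The AB line of Arabidopsis thaliana was compared with its wild type, COL, on Affymetrix ATH1 expression arrays, which read transcripts with sets of short probes. The 6 arrays titled AB or COL were taken from the 12 of the series and paired by the replicate number in their titles. The 22746 probe sets that are not Affymetrix controls were tested. COL is Columbia wild type, and AB is a knock-out line in that background made by T-DNA insertion. The other 6 arrays hold SIZ1 and SAB, both also T-DNA knock-out lines, with 3 arrays per genotype throughout. All plants were untreated seedlings grown at 23 °C on Murashige and Skoog medium (Gamborg B5) under 100 µE of light. An age of 10 days is stated for AB 1 and AB 2, whereas a harvest date takes its place for AB 3 and the COL samples. What AB and SAB abbreviate, which gene is disrupted in AB, and whether it is 1 insertion line or a cross is not stated. Since separate cultures or plants are not stated for the replicates, the p-values measure only their spread, which may be partly technical.

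SUMO is a small protein that is joined to other proteins, often nuclear ones, and alters their activity, partners or stability. E3 ligases such as SIZ1 promote its attachment, and SUMO proteases of the ubiquitin-like protease family trim its precursor and cut it from its targets. In Arabidopsis the balance between attachment and removal is known for its part in responses to heat, drought, salicylic acid and pathogens, and in growth and flowering. The submitters set out to characterise how such proteases affect transcription. The comparison of AB with COL addresses which transcripts change in 1 of the mutants.

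Values are GCRMA expression on the log2 scale, so that 1 unit is a doubling. They ran from 2.02 to 13.21, the median over the probe set means was 3.51, and a first quartile of 2.51 marks a floor of transcripts with little signal, where a change is understated. The number of arrays limits the precision. The median AB minus COL difference over all probe sets was -0.00069, with quartiles of -0.066 and 0.041. The 3 measured genes of the green-tissue list (LHCB4.1, LHCB4.2 and RCA) had a median level of 12.2, whereas no gene of the root and flower lists has a named probe set. The array means of the 27 poly-A control probe sets, which read RNA spiked in before labelling, were 4.08, 4.16 and 4.47 in COL and 4.46, 4.16 and 4.69 in AB. Those of the 18 hybridization control probe sets differed by 0.16 between AB and COL. The amounts of RNA overlapped, with means of 751 ng in COL and 739 ng in AB. In whole seedlings a lower level cannot tell fewer cells of a type from less RNA per cell.

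The SUMO pathway was represented by 6 of 20 listed genes, and 1 of them changed in AB. AT1G09730, named SPF1 in the literature, encodes a SUMO protease. Its level was 4.80, 4.75 and 4.74 in COL and 3.30, 2.80 and 3.42 in AB. Every AB array was far below every COL array, and the AB values approach the floor. SPF1 fell by 1.59 on the log2 scale (SE 0.14), which is 3.02-fold lower (limma adjusted p = 0.0106). SPF1 was the largest fall among genes named by 1 probe set. It also stood at 3.23 ± 0.09 (SD, n = 3) in SAB and at 4.29 ± 0.07 in SIZ1, a difference of -1.05 between those 2 lines that was not called (limma adjusted p = 0.411). The test of the difference between both effects gave -0.54 (SE 0.19, limma adjusted p = 0.594), so the size of the decrease was not shown to differ. Whether SPF1 is the gene disrupted in AB is not stated, and where the probes lie in SPF1 was not analysed here.

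The other 5 measured genes of SUMO attachment and removal differed by -0.23 to -0.0042, and none was called. SIZ1, the E3 ligase, was at 5.60, 5.36 and 5.53 in COL and at 5.16, 5.45 and 5.18 in AB, so that the groups overlap (difference -0.23, limma adjusted p = 0.568). A second SIZ1 probe set had means of 3.01 in COL and 3.14 in AB. SAE1A, a subunit of the enzyme that activates SUMO, had a difference of -0.15. AT4G33620 (SPF2), a SUMO protease closely related to SPF1, lay near the floor at 2.66, 2.77 and 2.89 in COL and 2.65, 2.67 and 2.62 in AB. AT3G48480 (difference -0.01) and the protease ULP1B (-0.0042) lay at the floor in all arrays of both groups. A transcript at the floor cannot show a decrease, so the low values of the last 3 do not check the labels.

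Of the genes that neighbour SPF1 on its chromosome, within 6 genes on either side, 3 are measured under a name. AT1G09750, the gene 2 places away, encodes a protein of the aspartyl protease family. It stood at 7.90, 8.11 and 7.79 in COL and at 7.45, 7.54 and 7.49 in AB. The groups are separate, and it fell by 0.44 (SE 0.06, limma adjusted p = 0.0492). AT1G09740, between it and SPF1, had a difference of 0.03, and AT1G09680 had one of 0.05. Neither was called. Where the insertion of AB lies is not stated, and whether it bears on AT1G09750 was not tested.

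Across the array 74 probe sets were called in AB against COL at a limma adjusted p under 0.05, or 0.325% of those tested. Of these, 28 were higher (0.123%) and 46 lower (0.202%). The rises ran from 0.34 to 1.38 with a median of 0.73, and the falls from -1.61 to -0.24 with a median of -0.52. All 28 and all 46 moved the same way in each of the 3 pairs. In 25 of the rises and 44 of the falls AB and COL arrays did not overlap. A change of more than 1 unit was found in 8 rises and 7 falls. Exactly 1 gene is named for 15 of the rises and 17 of the falls, and the other 42 probe sets are unnamed here or name several genes. The changes farthest from 0 in both directions, -1.61 and 1.38, are of probe sets unnamed here.

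These calls rest on the pairing and on the spread estimated from all 12 arrays. Without the replicate number in the model 14 probe sets were called, 4 higher and 10 lower, and all 14 are among the 74. In a fit to the AB and COL arrays alone 0 were called with limma, the only tool run, against 2677 at an unadjusted p under 0.05, and 1 was called without the SIZ1 arrays and 1 without the SAB arrays. The first of these is not among the 74 and the second is. Without AB 1, AB 2 or AB 3 the count was 19, 25 or 44, and without COL 1, COL 2 or COL 3 it was 29, 25 or 23. Centring each array on its median moved the split to 61 higher and 54 lower, or 53.0% higher in place of 37.8%. Of the 30 named genes described next, AT1G33790, AT1G52100 and AT1G07650 stayed called without any single one of the 6 arrays, and the other 27 lost their call at least once. SPF1 lost it once (highest limma adjusted p = 0.0515).

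**Figure D1:**
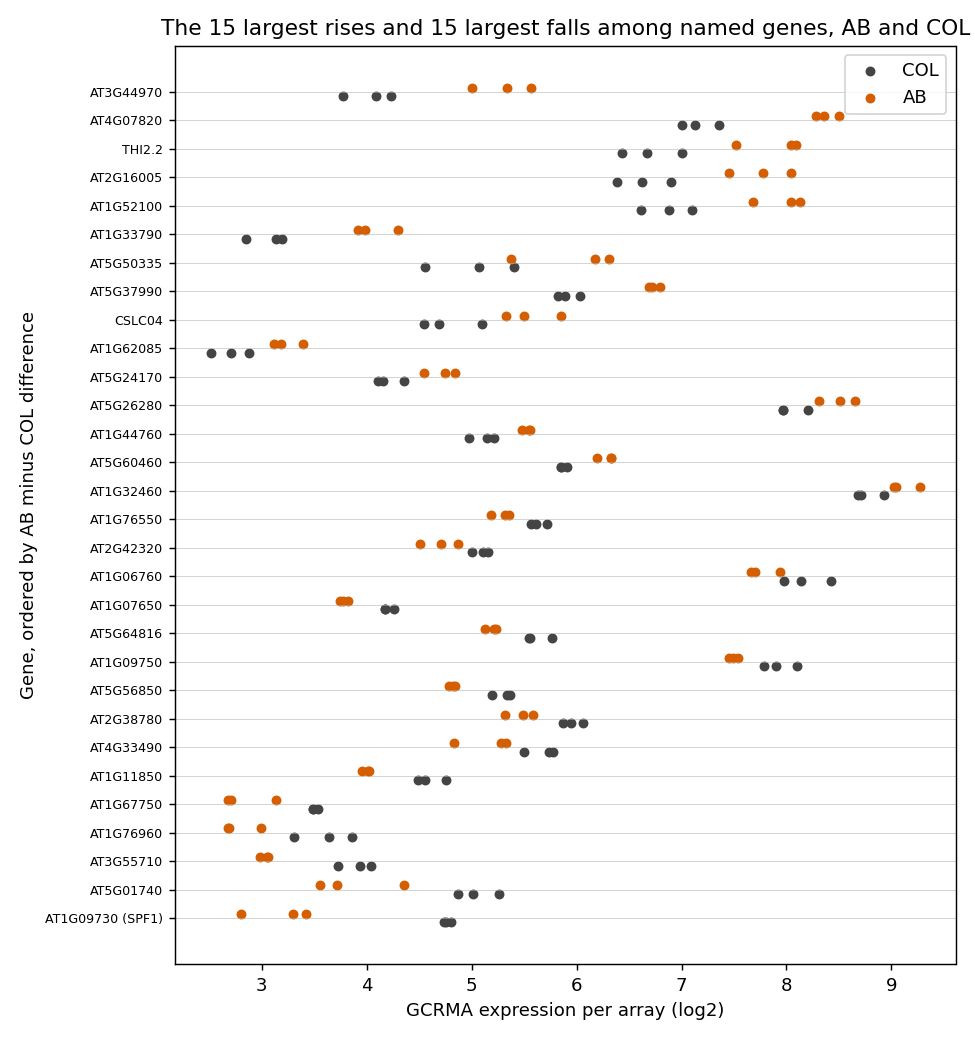
Log2 expression on each of the 3 COL and 3 AB arrays (1 point per array) for the 15 called genes with the largest rises and the 15 with the largest falls. In 29 of the 30 genes the AB points lie wholly to one side of the COL points, and SPF1, at the bottom, is the lowest in difference at -1.59.

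Rises of over 1 unit were found for genes of antimicrobial and pathogenesis-related families, for lectins and for a cytochrome P450. AT4G07820 encodes a protein of the family of pathogenesis-related protein 1. It was at 7.36, 7.0 and 7.13 in COL and at 8.50, 8.36 and 8.28 in AB. Every AB array exceeded every COL array, and the rise was 1.22 (SE 0.14, 2.32-fold, limma adjusted p = 0.0265). THI2.2, a thionin and thus a small antimicrobial peptide, was at 7.01, 6.67 and 6.43 in COL and at 8.09, 8.05 and 7.52 in AB. It rose by 1.18 (SE 0.14, 2.27-fold, limma adjusted p = 0.0265). In SIZ1 and SAB it stood at 4.99 ± 0.07 and 5.12 ± 0.34 (SD, n = 3), below both COL and AB in all arrays.

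The jacalin-type lectins AT1G52100 and AT1G33790, sugar-binding proteins of a family with members induced by wounding and herbivory, had the smallest adjusted p-values among the named rises. AT1G52100 was at 7.10, 6.88 and 6.62 in COL and at 8.04, 8.13 and 7.68 in AB. AT1G33790 was at 2.85, 3.19 and 3.13 in COL, near the floor, and at 3.91, 4.30 and 3.99 in AB. In both genes the groups are apart by more than the spread within either. The rises were 1.09 (SE 0.07) and 1.01 (SE 0.06), at the same limma adjusted p of 0.00650.

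AT3G44970, a cytochrome P450, had the largest rise among named genes. It was at 4.09, 3.77 and 4.23 in COL and at 5.57, 5.0 and 5.34 in AB, a rise of 1.27 (SE 0.12, 2.41-fold, limma adjusted p = 0.0160). It stood at 6.05 in both SIZ1 and SAB. AT2G16005, a protein with an ML lipid-recognition domain, rose from 6.63 ± 0.25 (SD, n = 3) to 7.76 ± 0.30. AT5G37990, of the SABATH family of methyltransferases, rose from 5.91 ± 0.11 to 6.73 ± 0.06. CSLC04, a glucan synthase that makes the backbone of the wall polysaccharide xyloglucan, rose from 4.78 ± 0.29 to 5.56 ± 0.27, and by 0.78, 0.81 and 0.75 in the 3 pairs (SE 0.10, limma adjusted p = 0.0273).

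The remaining rises were smaller or of genes with no role stated here. AT5G50335 rose by 0.94, and it is the 1 gene of the 30 whose groups overlap, since AB 1 (5.37) lay below COL 2 (5.41), although each pair rose. AT5G24170, a membrane protein of the Got1/Sft2 type of vesicle transport, rose by 0.50. AT5G60460, a Sec61 beta subunit of the channel through which proteins enter the endoplasmic reticulum, rose by 0.41, and AT5G26280, with a TRAF-like domain, by 0.45. AT1G62085 (0.53), AT1G44760 (0.42) and AT1G32460 (0.34) complete the 15.

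Beside SPF1, falls were found for a pectate lyase, a glycosyltransferase, a glycolytic enzyme and an aspartyl protease. AT1G67750, a pectate lyase, which cuts the pectin of the wall, was at 3.53, 3.49 and 3.49 in COL and at 3.13, 2.70 and 2.68 in AB. It fell by 0.66 (SE 0.09, limma adjusted p = 0.0450). AT3G55710, a UDP-glycosyltransferase that joins sugars to small molecules, fell by 0.87, from 3.90 ± 0.16 (SD, n = 3) to 3.03 ± 0.04. AT1G76550, an alpha subunit of the pyrophosphate-dependent phosphofructokinase of glycolysis, fell by 0.35. AT4G33490, of the aspartyl protease family like AT1G09750, fell by 0.53.

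AT1G07650, a kinase of the leucine-rich repeat receptor type, had the smallest adjusted p among the named falls. It was at 4.26, 4.18 and 4.18 in COL and at 3.77, 3.82 and 3.74 in AB. The spread within each group was small, and it fell by 0.43 (SE 0.03, limma adjusted p = 0.00650). AT1G06760, a linker histone H1, was at 8.43, 7.98 and 8.14 in COL and at 7.94, 7.66 and 7.70 in AB. It fell by 0.42 (SE 0.05, limma adjusted p = 0.0265). The second largest named fall was that of AT5G01740, from 5.05 ± 0.20 (SD, n = 3) to 3.87 ± 0.42. In SIZ1 and SAB it was at 4.02 and 4.05. Of the others, AT1G76960 fell by 0.82, AT1G11850 by 0.61, AT2G38780 by 0.49, AT5G56850 by 0.48, AT5G64816 by 0.43 and AT2G42320 by 0.39.

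SAB minus SIZ1 is a difference between other arrays than AB minus COL, so the difference between the 2 effects could be tested. The 2 effects are not independent, since both take the spread and the replicate terms from the fit to all 12 arrays. Between SAB and SIZ1 0 probe sets were called with limma, the only tool run, and 1254 had an unadjusted p under 0.05. Of the 28 rises in AB, 17 had the same sign in SAB minus SIZ1, with a median of 0.01 there, and of the 46 falls 22 did, with a median of 0.02. Among all probe sets 58.6% were higher in SAB than in SIZ1 and 41.4% lower, and the counts of 17 and 22 lie near those shares. The difference of effects was called for 12 probe sets (0.0528%), 7 higher and 5 lower, and all 12 are among the 74 and in the same direction. Of these, 3 probe sets name 1 gene. AT1G52100 was at 7.53, 7.54 and 7.13 in SIZ1 and at 7.53, 7.42 and 6.84 in SAB, and the difference of effects was 1.22 (limma adjusted p = 0.0230). AT1G33790 was at 3.05, 3.19 and 3.16 in SIZ1 and at 2.96, 3.14 and 3.04 in SAB, and its difference of effects was 1.1 (limma adjusted p = 0.0230). For AT5G24170 it was 0.74 (limma adjusted p = 0.0473). Without the replicate number in the model 0 were called, and 1218 had an unadjusted p under 0.05. Leaving out 1 array gave 1 without AB 1, 3 without COL 1, 1 without COL 3, and 0 without AB 2, AB 3 or COL 2.

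**Figure D2:**
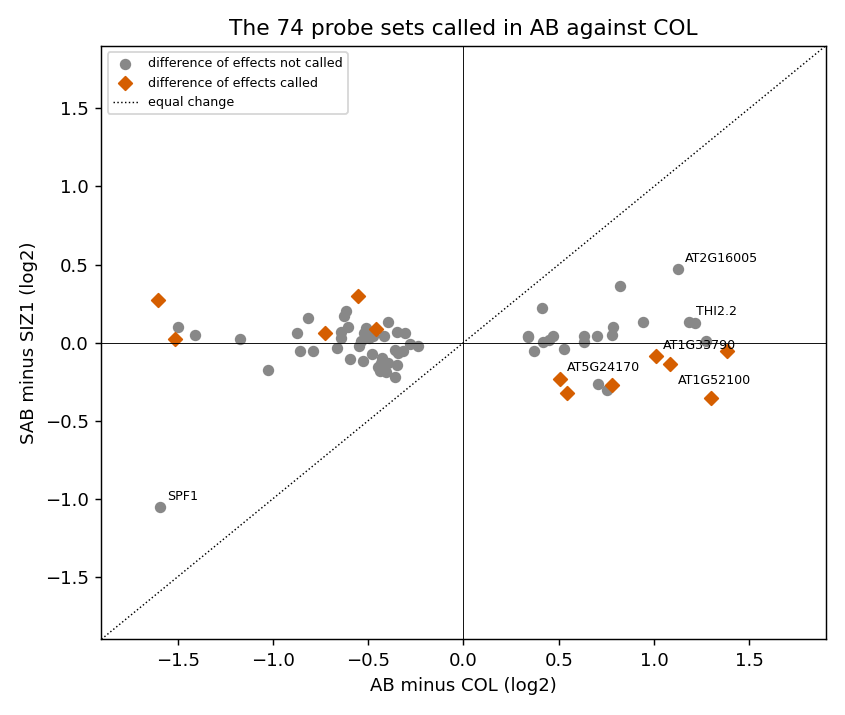
AB minus COL (horizontal, log2) against SAB minus SIZ1 (vertical, log2) for the 74 probe sets called in AB against COL, with the 12 whose difference of effects was called as diamonds. Most points lie near 0 on the vertical axis, and SPF1 is lower on both axes, at -1.59 and -1.05.

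Broader programmes were described through lists of genes. Each list is given by how many measured members were called, and by how many had all 3 AB arrays above, or all below, the 3 COL arrays. Over all probe sets, 1066 lay wholly above (4.69%) and 1462 wholly below (6.43%), and these shares are the background for the counts below. That background holds dim and unnamed probe sets, while the lists take named genes by their brightest probe set. Median levels were 4.30 for GDSL lipases, 6.90 for histones and 2.56 for pectin enzymes, against 3.51 over all probe sets. The shares are thus not fully alike. Of the 1066, 50.6% were also higher in SAB than in SIZ1, against 58.6% of all probe sets. Of the 1462, 60.3% were also lower there, against 41.4% of all.

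**Figure D3:**
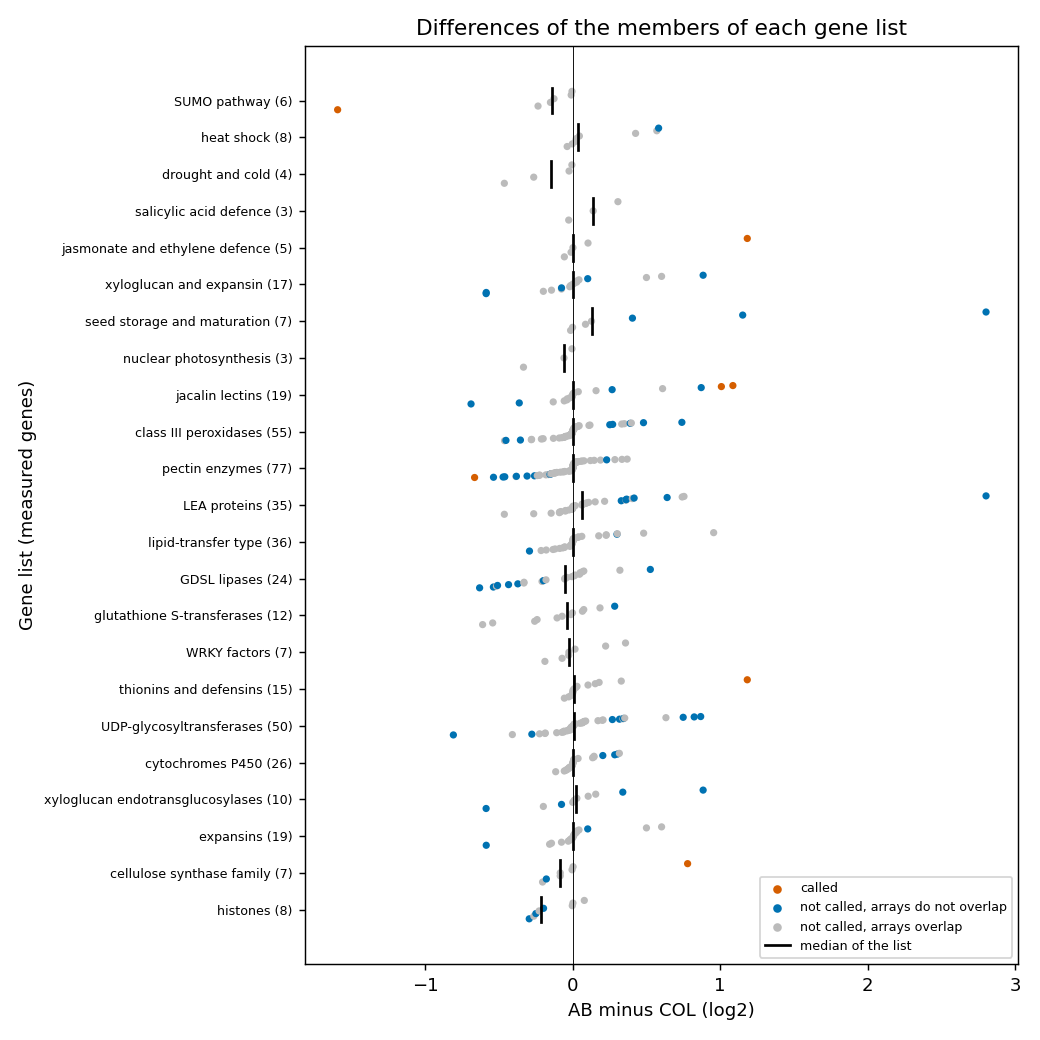
AB minus COL difference (log2) of each measured gene in lists with at least 3 of them, coloured by whether it was called or whether its arrays overlap, with the list's median as a bar. The medians lie between -0.21 (histones) and 0.14 (salicylic acid defence), and M17, at 2.80 in the seed and LEA lists, is the farthest to the right.

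The seed genes M17 and ICL had the largest differences among all list members, although neither was called. Of 35 listed genes of seed storage and maturation 7 are measured, 3 of them lay wholly above COL and 0 below, and the median was 0.13. M17, a late embryogenesis abundant (LEA) gene of the kind that protects drying seeds, was at 2.59, 2.94 and 4.02 in COL and at 5.42, 7.13 and 5.40 in AB. PAP85, a vicilin-type storage protein, was at 2.22, 2.23 and 2.32 in COL, which is the floor, and at 2.90, 4.29 and 3.05 in AB. Both genes were higher in every AB array, with AB 2 highest, and the differences were 2.80 and 1.15 (limma adjusted p = 0.0767 and 0.182). PAP85 was called when AB 2 was left out (difference 0.71, limma adjusted p = 0.0131), and in no other fit leaving out 1 array. AT2G25890, an oleosin of oil bodies, differed by 0.40. The mean level of the 7 genes was 2.44, 2.46 and 2.68 in COL and 3.0, 3.53 and 3.0 in AB, and ran from 2.36 to 2.55 in SIZ1 and SAB, so it was highest on the 3 AB arrays. This mean rests mostly on M17 and PAP85, and 2 of the 7 genes had a difference just below 0 (lowest -0.01).

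ICL, the isocitrate lyase of the glyoxylate cycle, which turns seed oil into sugar in germinating seedlings, was at 2.40, 2.63 and 3.57 in COL and at 4.36, 5.76 and 4.53 in AB. The groups are separate, and the difference was 2.02 (limma adjusted p = 0.114). ICL was at 3.68, 3.39 and 4.51 in SIZ1 and at 3.67, 4.63 and 4.60 in SAB, so both lines overlap AB. SDP1, a lipase of oil bodies and the other measured gene of reserve breakdown, differed by 0.07. AT2G28490, a cupin-type storage protein, and BGLU19, a beta-glucosidase, were looked at after their values were seen. AT2G28490 was at 2.41, 2.60 and 3.79 in COL and at 5.22, 4.47 and 4.17 in AB. BGLU19 was at 3.86, 4.31 and 5.36 in COL and at 6.68, 6.01 and 5.85 in AB. Their differences, 1.69 and 1.67, were not called (limma adjusted p = 0.147 and 0.333) and came from pairs that differed by 0.38 to 2.81 and by 0.49 to 2.81. For M17, PAP85, ICL, AT2G28490 and BGLU19 alike, COL 3 was the highest COL array.

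The list of LEA proteins, 35 of 49 measured, had 6 members wholly above COL (17.1%, against 4.69% of all probe sets) and 0 below, with 0 called and a median of 0.06. Besides M17, LEA18 differed by 0.64 and AtLEA4-1 by 0.42. All 6 were also higher in SAB than in SIZ1, by a median of 0.19. This list was added after the called genes were seen, and M17 is in both lists.

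**Figure D4:**
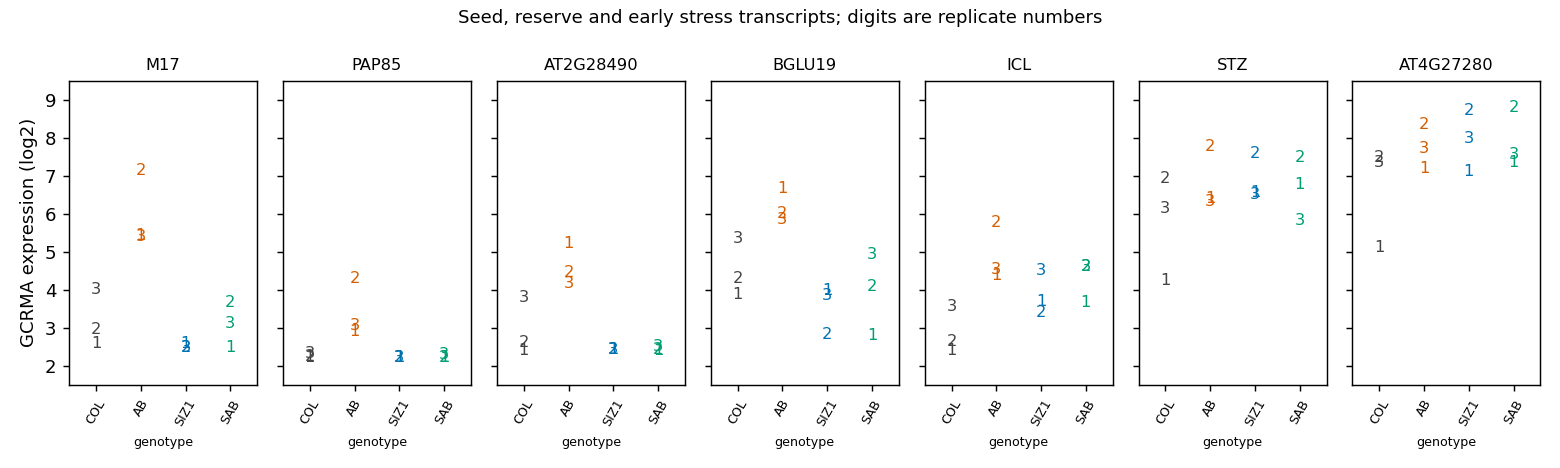
Log2 expression on all 12 arrays for M17, PAP85, AT2G28490, BGLU19 and ICL (seed and reserve genes) and STZ and AT4G27280 (early stress genes), with each array drawn as its replicate number. For the seed and reserve genes the 3 AB arrays lie above the 3 COL arrays, while STZ and AT4G27280 overlap and COL 1 is the lowest array.

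In the stress lists by locus THI2.2 and the 2 lectins were called. In the heat shock list, 8 of 27 measured, 0 were called, and the median was 0.04. AT2G29500, a small heat shock protein, was at 3.46, 3.83 and 3.43 in COL and at 4.2, 4.23 and 4.04 in AB, a difference of 0.58 (limma adjusted p = 0.0826). Of the fits leaving out 1 array, only that without COL 2, the highest COL array, called it (0.72, limma adjusted p = 0.0334). It was the 1 member wholly above COL, while AT5G48570, a peptidyl-prolyl isomerase of the heat response, differed by 0.57 with overlapping arrays. For oxidative stress 2 of 22 listed genes are measured. STZ, a zinc finger repressor induced by many stresses, was at 4.24, 6.92 and 6.13 in COL and at 6.40, 7.77 and 6.32 in AB. COL 1 lies far below the rest, and the difference of 1.07 was not called (limma adjusted p = 0.499). AT4G27280, an EF-hand calcium-binding protein examined after its values were seen, was at 5.12, 7.47 and 7.36 in COL and at 7.20, 8.35 and 7.73 in AB. Among the AB and COL arrays COL 1 was the lowest and AB 2 the highest for both genes. Replicate 2 was the highest array of every genotype for both. GSTU25, the other oxidative stress gene, differed by 0.08.

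The drought and cold list (4 of 25 measured) had a median of -0.14, with COR15A at -0.46, COR15B at -0.26 and 0 called. The salicylic acid list (3 of 25) had a median of 0.14, led by GRX480 at 0.31, with 0 called. In the jasmonate and ethylene list (5 of 25) THI2.2 was called, and the other 4, THI2.1, PDF1.2, PDF1.2b and JMT, differed by -0.06 to 0.10. THI2.2 was also the 1 called gene among 15 thionins and defensins, and 0 of 7 WRKY transcription factors were called.

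The larger stress and detoxification families went both ways or had few separate members. Of 19 measured jacalin lectins, 4 lay wholly above COL (21.1%, against 4.69% of all probe sets) and 2 below (10.5%, against 6.43%). The 4 include the 2 called members, AT1G52100 and AT1G33790, which were known before the list was made. The 21.1% is thus no separate evidence for a rise of the family. AT3G21380 was at 2.64, 3.19 and 3.21 in COL and at 3.98, 3.96 and 3.71 in AB, while AT1G52000 was lower, at 4.29, 4.46 and 4.36 against 3.78, 3.46 and 3.80. The median of the family was -0.00024, so as many members lay near 0 or below as above. Of 55 class III peroxidases, enzymes that act on the wall and on hydrogen peroxide, 5 lay above and 2 below with 0 called. AT4G11290 differed by 0.74, AT5G64120 by 0.48 and AT2G35380 by -0.45. Both of these lists were added after the called genes were seen.

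Of 50 UDP-glycosyltransferases recognised by name, 6 lay wholly above COL (12.0%) and 2 below (4.0%), with 0 called. UGT73B5 was at 4.82, 5.33 and 5.13 in COL and at 6.10, 6.19 and 5.61 in AB, a difference of 0.87 (limma adjusted p = 0.154). UGT76E12 differed by 0.82. UGT72E2, which adds glucose to the lignin precursors, was lower, at 6.27, 6.07 and 6.14 in COL and 5.46, 5.34 and 5.25 in AB (difference -0.81, limma adjusted p = 0.0542). Of 26 cytochromes P450 recognised by name 3 lay above and 0 below, CYP71B23, CYP71B6 and CYP71B34, by 0.20 to 0.30. AT3G44970 and AT3G55710 carry only a locus code in the annotation and are outside these lists. Of 12 glutathione S-transferases 1, GSTU27, lay above (0.29) and 0 below.

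In the cell wall lists 1 pectin enzyme and CSLC04 were called. Of 77 measured pectin enzymes 9 lay wholly below COL (11.7%, against 6.43% of all probe sets) and 1 above (1.3%, against 4.69%), with AT1G67750 the 1 called gene. The median difference was 0.00047, and the median level of the list, 2.56, is close to the floor. Of the 9, 5 were also lower in SAB than in SIZ1 (median -0.03), against 60.3% of all probe sets wholly below COL. Among genes that loosen or build the xyloglucan network, 10 xyloglucan endotransglucosylases had 2 members above and 2 below. XTH19 was at 4.0, 4.1 and 4.09 in COL and at 4.53, 5.31 and 5.0 in AB, a difference of 0.88 (limma adjusted p = 0.163), and XTH32 differed by 0.34. XTH16 went the other way, with 4.58, 4.51 and 4.93 in COL and 4.18, 3.93 and 4.14 in AB. Of 19 expansins, proteins that loosen the wall, EXPB3 lay below (-0.59) and EXPA18 above (0.10). An overlapping list of xyloglucan enzymes and expansins by locus, 17 of 34 measured, had 2 above, 3 below and 0 called. In the cellulose synthase family CSLC04 was the 1 called of 7, and CSLC5 lay below COL (-0.18).

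No gene of the lipid lists was called. The GDSL lipases are esterases that act on cutin and other lipids. Of 24 measured 6 lay wholly below COL (25%, against 6.43%) and 1 above (4.17%), with 0 called and a median of -0.05. AT4G18970 was at 6.45, 6.60 and 6.48 in COL and at 6.18, 5.93 and 5.80 in AB, a difference of -0.54 (limma adjusted p = 0.0590). Leaving out COL 1 gave -0.65 and a call (limma adjusted p = 0.0351), which leaving out any other single array did not. AT4G28780 differed by -0.63 and AT5G14450 by -0.51. Of the 6, 4 were also lower in SAB than in SIZ1 (median -0.03), against 60.3% of all probe sets wholly below COL. Among 36 proteins of the lipid-transfer type 1 lay below, AT1G62510 (-0.29), and 1 above, AT1G48750 (0.30). The pectin, GDSL and lipid-transfer lists were added after the called genes were seen. WSD1, the 1 measured wax gene, differed by 0.0029.

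Of the 8 histones recognised by name 3 lay wholly below COL (37.5%) and 0 above, with a median of -0.21 and 0 called. HON4, of the linker histone type, was at 7.52, 7.38 and 7.40 in COL and at 7.17, 7.02 and 7.23 in AB. HTB2 and HTB4, of the H2B family, differed by -0.25 and -0.20. The called linker histone AT1G06760 is not in this list, since the annotation gives its locus code only. The green-tissue genes LHCB4.2, LHCB4.1 and RCA differed by -0.33, -0.06 and -0.0045.

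**Figure D5:**
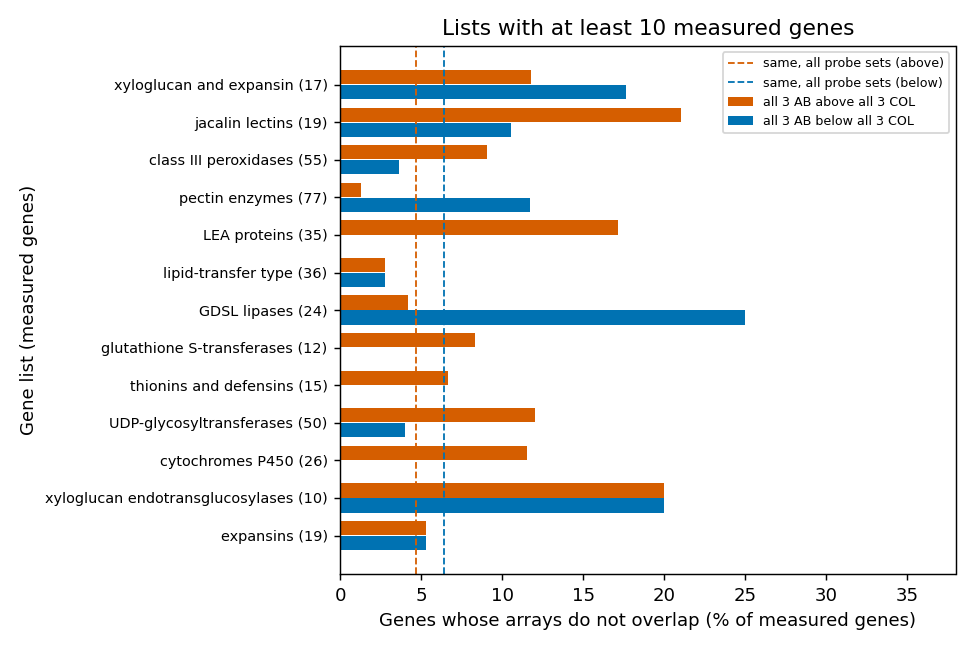
Share of measured genes (%) whose 3 AB arrays lie wholly above (orange) or wholly below (blue) the 3 COL arrays, for lists with at least 10 measured genes, with dashed lines at 4.69% and 6.43% for all probe sets. GDSL lipases reach 25% below. Jacalin lectins reach 21.1% above (with the 2 called lectins counted) and 10.5% below, xyloglucan endotransglucosylases 20% each way, and LEA proteins 17.1% above with none below. The lists of jacalin lectins, LEA proteins, GDSL lipases, pectin enzymes, class III peroxidases and lipid-transfer proteins were added after the called genes were seen. The xyloglucan and expansin list overlaps the lists of xyloglucan endotransglucosylases and of expansins.

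The 8 short lists formed by name (peroxidases, pectin enzymes, jacalin lectins, PR-1-like proteins, LEA proteins, oleosins and caleosins, extensins and proline-rich proteins, laccases and lignin) matched 35 genes, of which 0 were called, 4 lay above COL and 1 below. Of the 4 above, 3 are among the 7 LEA proteins matched by name (42.9%, against 4.69% of all probe sets). The 1 below is among 5 pectin enzymes (20%, against 6.43%). Matching by name also took in some unrelated genes, such as splicing factors under proline-rich proteins. The cellulose synthases, fatty acid synthesis, root and flower lists had no named member on the array. Some of these genes could be behind the 8730 probe sets unnamed here.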

How the data were processed

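RNA of 12 seedling samples was hybridised to ATH1 arrays, 1 sample per array, after amplification and biotin labelling with 5.5 µg of ssDNA. The authors deposited log2 expression per probe set. The submitters' processing notes name GCRMA, which corrects probe background, normalizes and summarises, and the sources used here give neither its version nor whether the arrays were processed together. The log2 scale was read from the range of the values. They were used as deposited, without the 64 control probe sets.

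Probe sets were named from the platform annotation, updated through RefSeq's gene table (TAIR10.1): 13513 name 1 gene (13436 matched), 503 several, and 8730 none here. For 11751 of 13286 loci that table gives only the locus code, and the roles stated for such codes are general knowledge of the Arabidopsis annotation.

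The tests used lmFit and eBayes of limma 3.58.1 (R 4.3.3) on all 12 arrays, with terms for genotype and for replicate number as a block (6 residual and 1.42 prior degrees of freedom). Tests were two-sided, Benjamini-Hochberg adjusted over 22746 probe sets, and called at an adjusted p under 0.05. SE is limma's moderated standard error. The fit was tested on simulated data with 200 changed probe sets. The block was chosen because the comparison is defined by pairs, with its effect on the number of calls (74 with it, 14 without) already known. Deviations from genotype means of arrays with the same number correlated at 0.10 to 0.45 in all 18 pairs (AB with COL at 0.41, 0.22 and 0.45). The 36 pairs of unlike number had a median of -0.13. Since the deviations of a genotype cancel out, positive correlations at the same number bring negative ones at unlike numbers. The -0.13 is thus no separate evidence for the pairing.

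For each locus the lists use the probe set with the highest mean that names it alone. The comparison and the lists were chosen with earlier results of these data known. There were 15 lists by locus and 28 by name, 11 of the latter matching no gene, and 6 lists by locus were added after the called genes were seen. The name pattern of 1 list, thionins and defensins, was corrected after it matched unrelated genes. Named are the 15 largest rises and falls among called probe sets of 1 gene with all 3 pairs in one direction, all measured SUMO genes and, per list, the called members or otherwise up to 3 with separate groups; those named otherwise (members with overlapping groups, AT2G28490, BGLU19, AT4G27280) were chosen after their values were seen. The alternatives changed the block, the arrays in the fit, the normalization, the filter on dim probe sets and the variance prior, or left out arrays.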

Additional observations from a re-analysis of the deposited data

Results flagged for a closer look

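For 3 named genes the change in AB against COL differed from that between SAB and SIZ1, by the test of the difference itself in the fit to all 12 arrays. AT1G52100, a jacalin-type lectin, rose by 1.09 in AB and differed by -0.14 between SAB and SIZ1, so the effects differed by 1.22 (limma adjusted p = 0.0230). AT1G33790, another lectin of that type, rose by 1.01 and differed by -0.09, a difference of 1.1 (limma adjusted p = 0.0230). AT5G24170, of the Got1/Sft2 type of membrane proteins, rose by 0.50 and differed by -0.23, a difference of 0.74 (limma adjusted p = 0.0473). All pairs of AB with COL rose in each of the 3 genes, which the rule for naming genes required. None of the 12 calls of this test was made without the replicate number in the model. Groups of 3 arrays are too small to be searched for outlying samples.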

How the results depend on the processing

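The main count of AB against COL was 74 probe sets. It was 14 without the replicate number as a block, 0 in the fits to AB and COL alone with the block (2677 at an unadjusted p under 0.05) and without it (1823), and 1 without the SIZ1 or the SAB arrays. It was 115 with each array centred on its median and 188 among the brighter probe sets, where 55 of the 74 were kept. It was 19 to 44 leaving out 1 array, and 2 with AB 3 as the only AB array, which is then assumed to vary like the other groups. Quantile normalization (60) and an intensity trend with a robust prior (89) stayed within 1.5 times, although the latter shared 50 calls. The count for the difference of effects, 12, was 0 without the block, 19 among the brighter probe sets, 0 to 3 leaving out 1 array and 1 with AB 3 alone, and 8 to 18 in the other fits that can test it. Of the 30 named genes 5 kept their call without the block, 28 with centring, 22 with quantile normalization, 21 with the trend, 4 to 11 leaving out 1 array, and 0 with AB and COL alone, with AB 3 alone, or without SIZ1 or SAB. None of the 30 changed direction under any of the 16 alternatives that could be fitted for it. The 30 were chosen with all 3 pairs in one direction, and several alternatives leave the difference itself unchanged. The kept direction is thus no separate support. Of 7 uncalled genes followed through the alternatives, 6 passed among the brighter probe sets: M17 (limma adjusted p = 0.00701), UGT72E2 (0.00918), ICL (0.0158), AT4G18970 (0.0229), AT2G29500 (0.0256) and XTH19 (0.0365). The brighter probe sets were chosen by their mean over all 12 arrays, AB included. A gene high in AB, such as M17, can enter that filter through AB, so its passing there is no separate support. With centring M17 (0.0436), UGT72E2 (0.0348) and AT4G18970 (0.0497) passed, and with the trend M17 (0.0470) and UGT72E2 (0.0311). Leaving out 1 array, PAP85 passed only without AB 2, AT4G18970 only without COL 1 and AT2G29500 only without COL 2. List medians were recomputed 458 times and moved by more than the spread between replicates in 60. The cause of these changes was not tested, beyond fewer probe sets or arrays in the fits that leave some out. Signal near the floor limits what dim probe sets can show.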

Other observations

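Some named genes outside the lists and below the threshold differed by about as much as the called ones, and were picked after their values were seen. ARPN, a plantacyanin, was at 5.08, 4.65 and 4.51 in COL and at 5.88, 6.03 and 5.55 in AB, a difference of 1.07 (limma adjusted p = 0.0590). AT2G43590, of the chitinase family, was at 6.42, 6.76 and 6.24 in COL and at 5.26, 6.06 and 5.03 in AB, a difference of -1.03 (limma adjusted p = 0.0778). In both genes the groups are separate. AT1G72920, a TIR-NBS protein, was at 3.35, 5.41 and 4.76 in COL and at 5.35, 6.09 and 5.24 in AB, where COL 1 is the lowest array as for STZ and AT4G27280, and its difference of 1.05 was not called (limma adjusted p = 0.430). The called genes AT4G39170 and AT2G43560, outside the 15 largest falls, fell by 0.34 and 0.28 (limma adjusted p = 0.0265 and 0.0445).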
